A study of Homo sapiens with 4 samples.

Results

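The genes described here are the collagen chains and the enzymes that modify collagen, measured by RNA-seq in U251 cells, an established human glioblastoma (GBM) cell line. They were chosen by symbol from the gene count table: every COL gene whose symbol gives a collagen type and an A-numbered chain, the lysyl oxidases LOX and LOXL1 to LOXL4, the catalytic subunits of prolyl 4-hydroxylase P4HA1 to P4HA3, and the lysyl hydroxylases PLOD1 to PLOD3. The rule found 48 of the 15575 genes in the table, 37 chains and 11 enzymes. Of the 55 annotated human genes with such symbols, COL2A1, COL6A5, COL6A6, COL9A1, COL22A1, COL23A1 and COL26A1 were not analysed here. Both groups were U251 cells that had received lentivirus. The 2 Ctrl libraries carried a control shRNA (their labels name pGreen, the labels of the other group do not), and the 2 PRMT3-KD libraries carried an shRNA against PRMT3, an arginine methyltransferase. RNA was taken after 72 h. The hairpin used for these libraries is not named, the model is 1 cell line, and the labels do not say that the libraries came from separate cultures, so the p-values below measure only the spread between these libraries.

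A collagen molecule is a trimer whose chains wind into a helix. Prolyl 4-hydroxylases hydroxylate proline in the new chains inside the endoplasmic reticulum, which keeps the helix stable at body temperature, and lysyl hydroxylases modify lysines that later carry sugars and cross-links. After secretion, lysyl oxidases oxidise lysines of collagen and elastin so that neighbouring molecules become covalently cross-linked. Fibrillar collagens (types I, III, V and XI among them) form fibrils, type IV chains form the network of basement membranes, type VI forms beaded filaments, and other types sit on fibrils, anchor epithelia or span the plasma membrane. In brain, type IV collagen lies mainly around vessels, and glioma cells in culture can express many chains.

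The knockdown was visible in both PRMT3-KD libraries, where PRMT3 had 77 and 45 counts against 535 and 535 in Ctrl (log2 fold change -3.08, SE 0.31, adjusted p = 0.0177). Library totals lay between 24804250 and 29756313 counts. The 2 Ctrl libraries were close to counting error (chi-square 1.42 per degree of freedom), whereas the 2 PRMT3-KD libraries differed far more from each other (63.6). Called and abundant members are therefore given below by library, and some others by the range of their counts or by fold change alone. Of the glioma and astrocyte markers, VIM, CD44, NES and SOX2 were abundant, S100B had 49 to 80 counts and AQP4 had 0 or 1 counts. OLIG2 was not among the genes counted. GFAP had 363, 392, 32 and 153 counts in Ctrl 1, Ctrl 2, PRMT3-KD 1 and PRMT3-KD 2, with both PRMT3-KD values below Ctrl (log2 -2.03, SE 0.64, adjusted p = 0.0958), and its part in the collagen values was not tested. Expression is given as counts, and as CPM (counts per 1000000 counts of the library, with edgeR's TMM factors) with the SD of 2 libraries. A gene was called when edgeR's quasi-likelihood test gave an adjusted p under 0.05 over all 13172 genes tested and the change exceeded 1.5-fold, and "rose" or "fell" is used below for called genes alone. An exact permutation test of 2 against 2 libraries cannot go below p = 0.333 and was not used.

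Collagen chains were a sizeable part of the transcriptome, and most of their counts came from few genes. They took 0.821% and 0.827% of all counts in Ctrl and 1.02% and 1.27% in PRMT3-KD libraries. Enzymes took 0.24% and 0.246% in Ctrl and 0.203% and 0.326% in PRMT3-KD libraries. COL1A2, the alpha-2 chain of type I collagen, alone gave 37.2% to 48.9% of the chain counts and ranked between 8 and 12 among all genes. The 5 most abundant chains together gave 75.0% to 78.8%. At the other end, 7 members had a mean under 1 CPM, and COL20A1 (2, 3, 2 and 0 counts in Ctrl 1, Ctrl 2, PRMT3-KD 1 and PRMT3-KD 2) and COL28A1 (7, 7, 8 and 4 counts) were too low to be tested. That left 35 chains and 11 enzymes. All counts below follow the same order of libraries.

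**Figure D1:**
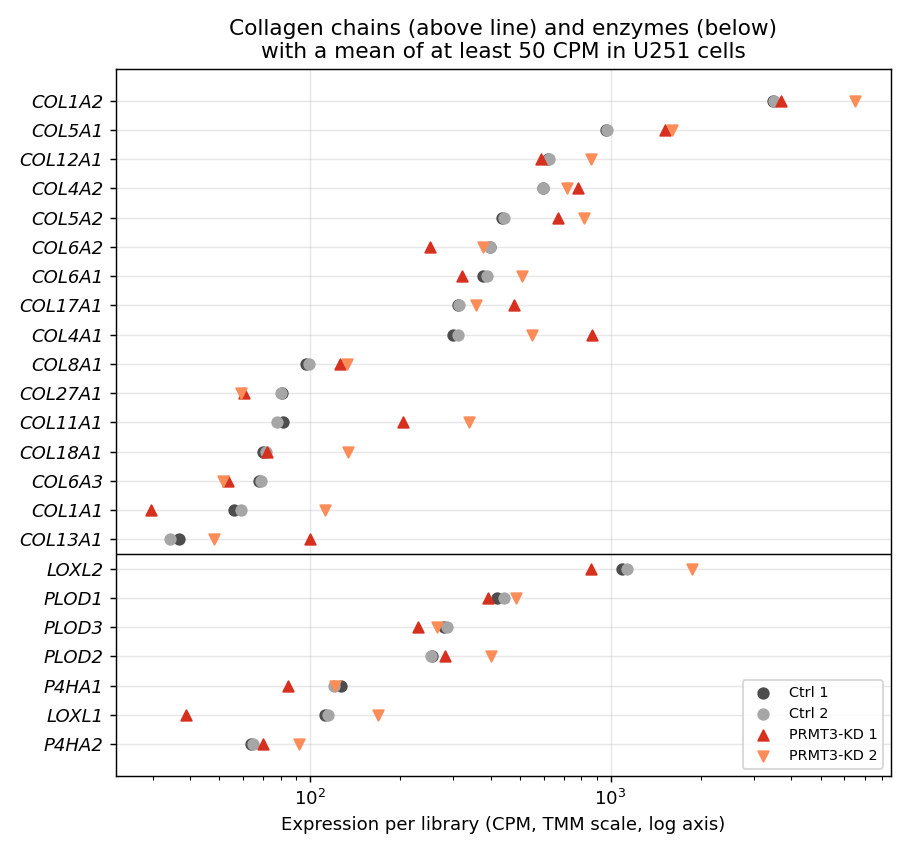
Expression of the 23 members with a mean of at least 50 CPM, in CPM on a log axis, with 1 symbol per library (circles, Ctrl; triangles, PRMT3-KD) and a line between the 16 chains and the 7 enzymes. The Ctrl symbols lie close together, and the PRMT3-KD symbols lie apart from each other for COL1A1, LOXL1 and LOXL2.

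Per kilobase of the canonical transcript, which allows genes to be compared, COL1A2 stood first in Ctrl with a mean of 689 CPM per kb. The next were the lysyl oxidase LOXL2 (299 CPM per kb), PLOD1 (145 CPM per kb), COL5A1 and COL6A2 (115 CPM per kb each), PLOD3 (99.9 CPM per kb) and COL4A2 (92.6 CPM per kb). COL1A1, the chain that normally supplies most of a type I trimer, had 9.69 CPM per kb. The ratio of COL1A2 to COL1A1 on this scale was 72.9 and 69.4 in the Ctrl libraries, 146 in PRMT3-KD 1 and 67.6 in PRMT3-KD 2.

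In PRMT3-KD libraries, 5 collagen chains rose and 3 fell, and no enzyme was called. The chains that rose were COL11A1, COL4A1, COL4A5, COL5A2 and COL5A1, and those that fell were COL4A4, COL21A1 and COL7A1. All 5 that rose were fibrillar or type IV chains, but 10 of the 35 chains tested are fibrillar and 6 are type IV. With DESeq2 and with limma-voom the transmembrane chain COL13A1 was called higher as well. Over all genes tested 10.9% were called, 4.97% higher and 5.97% lower. Of the 35 chains, 22.9% were called, 14.3% higher and 8.57% lower. The median log2 fold change was 0.31 over the chains and -0.13 over the enzymes, against 0.0055 over all genes. The chain median was 0.030 in PRMT3-KD 1 and 0.28 in PRMT3-KD 2 against the Ctrl mean, was 0.026 in the fit without PRMT3-KD 2, and was 0.19 with limma-voom and with the replicate block. For the 19 chains with a mean of at least 10 CPM it was 0.41, with 5 called higher and 1 lower, against 0.011 over the 9459 genes at that level, of which 12.3% were called. In 28 chains the PRMT3-KD values did not overlap the Ctrl values (80.0%, 16 above and 12 below), where 67.1% of all genes tested did not overlap. The calls rest on the small spread of the Ctrl pair. Without either Ctrl library 0 of all genes were called, and without PRMT3-KD 1 or PRMT3-KD 2 the called chains numbered 12 and 10 higher and 5 and 8 lower, the remaining knockdown library being assumed to vary like the Ctrl pair. DESeq2 called 7 chains higher and 4 lower, adding COL3A1, COL13A1 and COL9A3. In bulk RNA, fewer cells that express a gene and less RNA per cell cannot be told apart.

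**Figure D2:**
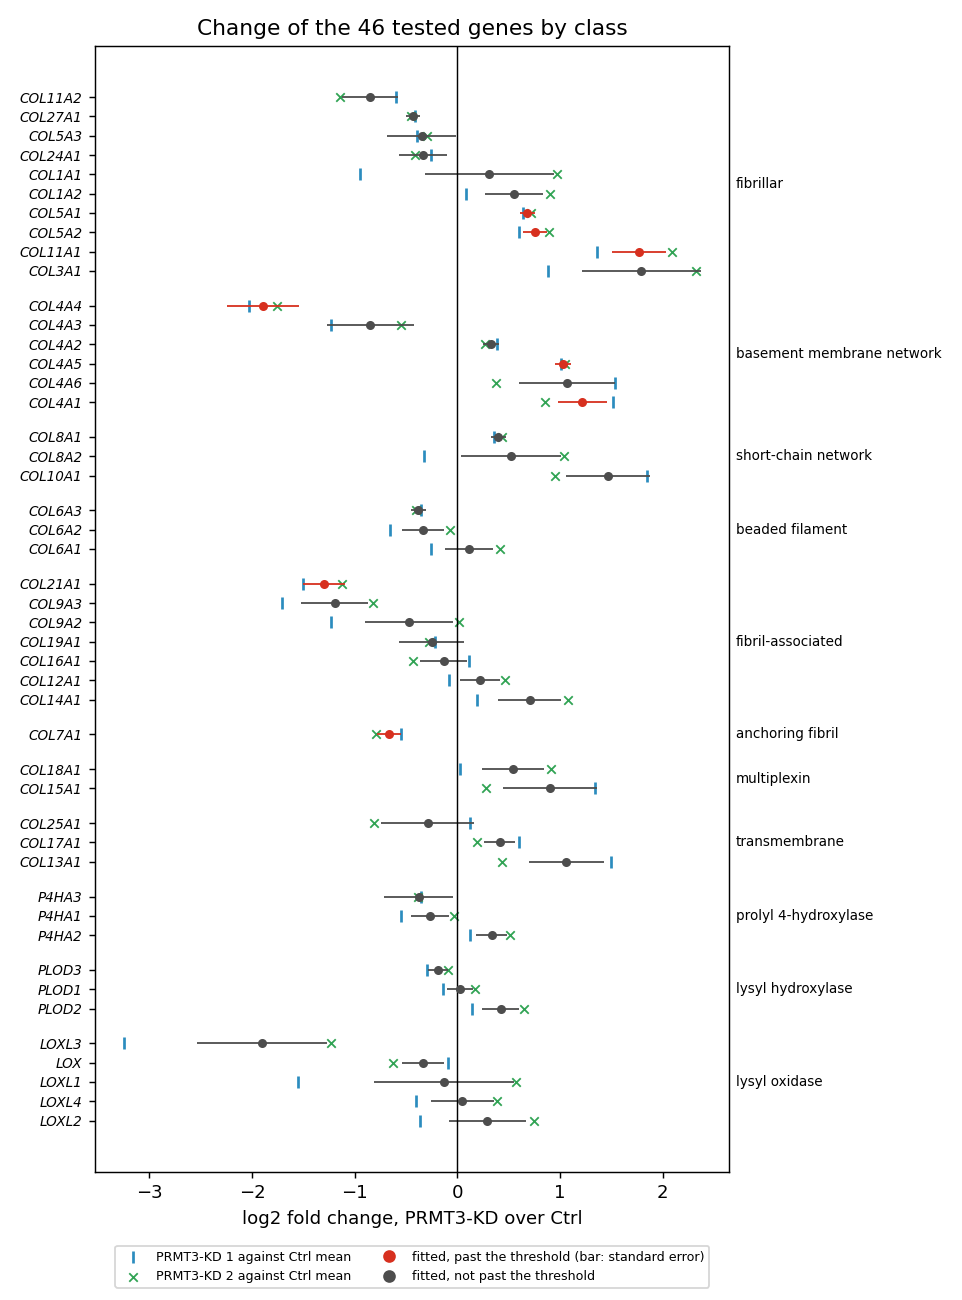
Log2 fold change of PRMT3-KD over Ctrl for the 46 tested members, grouped by class. Dots are fitted values with their standard error (red, past the threshold), and ticks and crosses are PRMT3-KD 1 and PRMT3-KD 2 against the Ctrl mean. Red dots lie to the right for COL11A1, COL4A1, COL4A5, COL5A2 and COL5A1 and to the left for COL4A4, COL21A1 and COL7A1.

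Among the 10 fibrillar chains tested, COL11A1, COL5A2 and COL5A1 rose and none fell. COL11A1, a chain of type XI collagen that helps to start fibrils and set their diameter, had 2254, 2134, 5181 and 9621 counts. Both PRMT3-KD libraries lay above both Ctrl libraries, and PRMT3-KD 2 was the higher. The mean went from 79.5 ± 2.66 CPM (SD, n = 2) to 271 ± 95.3 CPM, a 3.41-fold change (log2 1.77, SE 0.26, adjusted p = 0.0248). The gene lies on chromosome 1 (103342023 to 103574428, minus strand; this and the other gene bounds are on GRCh37).

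COL5A1 and COL5A2 encode the chains of the main type V collagen, which is built into type I fibrils. COL5A1 (chromosome 9, 137533649 to 137736689, plus strand) had 26855, 26860, 38600 and 45506 counts, or 973 ± 5.14 and 1561 ± 58.3 CPM (1.60-fold, log2 0.68, SE 0.072, adjusted p = 0.0182). COL5A2 (chromosome 2, 189896624 to 190090038, minus strand) had 12089, 12185, 16976 and 23151 counts, or 440 ± 4.72 and 742 ± 104 CPM (1.69-fold, log2 0.75, SE 0.12, adjusted p = 0.0268). For both genes the lower PRMT3-KD library was clear of the higher Ctrl library. Their ratio per kb stayed in a narrow range, 1.80, 1.78, 1.84 and 1.59 COL5A1 per COL5A2, since both rose by a similar factor. The third type V chain, COL5A3, had only 15 to 25 counts (log2 -0.34, adjusted p = 0.504).

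The promoter windows of COL5A1 and COL11A1 are shown because these were the abundant and the most changed fibrillar chains that rose and had an entry in the promoter table. Each runs from 250 bases before to 50 bases after the RefSeq transcript start (GRCh38.p14). Capitals mark the matches to GGGCGG (GC box), CCAAT and TATAAA on either strand.
COL5A1, chr9:134641553-134641852, plus strand: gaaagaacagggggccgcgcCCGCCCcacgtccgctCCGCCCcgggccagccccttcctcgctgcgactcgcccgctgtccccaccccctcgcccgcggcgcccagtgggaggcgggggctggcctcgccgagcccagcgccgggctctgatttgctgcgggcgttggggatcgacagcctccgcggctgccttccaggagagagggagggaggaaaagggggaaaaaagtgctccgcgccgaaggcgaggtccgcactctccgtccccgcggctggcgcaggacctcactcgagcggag
COL11A1, chr1:103108473-103108772, minus strand: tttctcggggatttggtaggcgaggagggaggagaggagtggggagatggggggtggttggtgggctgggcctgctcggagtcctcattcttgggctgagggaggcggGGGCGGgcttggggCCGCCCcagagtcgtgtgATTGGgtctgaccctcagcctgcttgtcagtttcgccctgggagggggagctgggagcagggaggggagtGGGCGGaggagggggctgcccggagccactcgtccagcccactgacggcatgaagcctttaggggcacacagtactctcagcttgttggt
COL5A1 has 2 GC-box matches and COL11A1 has 3, with 1 CCAAT match in COL11A1 and no TATAAA match in either. The windows hold 74.0% and 66.0% G and C. RefSeq windows were found for 37 of the 48 members (51 windows). Of these windows, 54.9% hold GGGCGG, 31.4% CCAAT and 15.7% TATAAA, against 45.0%, 34.6% and 11.5% of all 35116 windows in the table. Some genes have several windows, and some of these overlap, so the same match can count more than once.

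Type I collagen differed between the PRMT3-KD libraries. COL1A2 had 96569, 96291, 94076 and 185289 counts, so that PRMT3-KD 2 alone stood far above the rest (3493 ± 10.9 and 5113 ± 1994 CPM, log2 0.55, SE 0.28, adjusted p = 0.232). COL1A1 had 1544, 1619, 753 and 3197 counts, with PRMT3-KD 1 below and PRMT3-KD 2 above both Ctrl libraries (57.3 ± 2.22 and 71.1 ± 58.6 CPM, log2 0.31, SE 0.63, adjusted p = 0.749). COL3A1, the chain of type III collagen, had 16, 19, 30 and 91 counts (log2 1.79, SE 0.58, adjusted p = 0.101, and 0.0454 with DESeq2). All 3 chains had their highest value in PRMT3-KD 2, and edgeR called none.

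The summed level of the 5 listed fibroblast markers was also highest in PRMT3-KD 2. It was 652 and 660 CPM in Ctrl, 625 CPM in PRMT3-KD 1 and 1082 CPM in PRMT3-KD 2. Nearly all of it was THY1, also a glycoprotein of neural cells, with 16695, 16763, 15333 and 28626 counts. PDGFRB had 441, 428, 302 and 1019 counts and PDGFRA 925, 942, 219 and 1056. PDGFRA thus stood apart in PRMT3-KD 1 (log2 -1.97 against the Ctrl mean) and was near Ctrl in PRMT3-KD 2 (0.14). The defining matrix genes of fibroblasts were close to 0, with 8 to 38 counts for LUM and 2 to 10 for DCN. The sum of the 2 endothelial markers in the table was also highest in PRMT3-KD 2 (7.399, 7.38, 6.26 and 27.9 CPM). This came from CDH5, with 140, 146, 129 and 722 counts, while VWF had 65, 57, 30 and 70 counts. Immune markers summed to 24.2 to 29.99 CPM. The part of these markers in the type I values was not tested.

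The remaining fibrillar chains had lower values in the PRMT3-KD libraries. COL27A1 had 2242, 2208, 1537 and 1678 counts, and both PRMT3-KD values were below both Ctrl values. Its change passed the adjusted p threshold but was under 1.5-fold (log2 -0.43, SE 0.070, adjusted p = 0.0297). COL11A2 (45 to 105 counts, log2 -0.85, adjusted p = 0.102) and COL24A1 (37 to 49 counts, log2 -0.33, adjusted p = 0.362) were not called. COL11A1 and COL11A2, both chains of type XI collagen, thus had fold changes of opposite sign, and only COL11A1 passed the test. The difference between them was not tested.

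Of the 6 type IV chains, COL4A1 and COL4A5 rose and COL4A4 fell. COL4A1 and COL4A2 make up the ubiquitous basement membrane network. COL4A1 (chromosome 13, 110801310 to 110959504, minus strand) had 8311, 8540, 22115 and 15614 counts, and its mean went from 305 ± 7.44 to 710 ± 227 CPM (2.33-fold, log2 1.22, SE 0.23, adjusted p = 0.0382, and 0.0518 when scaled by library totals only). COL4A2 (chromosome 13, 110958159 to 111165556, plus strand) had 16548, 16401, 19793 and 20425 counts, or 597 ± 0.691 and 749 ± 42.5 CPM (1.26-fold, log2 0.33, SE 0.077, adjusted p = 0.0539). Exons of other genes cover 0.5% of the exonic bases of COL4A2. Both genes had non-overlapping groups, and the larger change of COL4A1 brought their levels closer. There were 0.495 and 0.513 COL4A1 per COL4A2 per kb in Ctrl, 1.10 in PRMT3-KD 1 and 0.754 in PRMT3-KD 2.

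These genes stand head to head. In RefSeq (GRCh38.p14) the starts of COL4A1 and COL4A2 are 127 bases apart on chromosome 13, those of COL4A4 and COL4A3 419 bases apart on chromosome 2, and those of COL4A6 and COL4A5 380 bases apart on the X chromosome. The window of COL4A2 is shown because it holds both starts of the pair, with the bases between them in capitals.
COL4A2, chr13:110307034-110307333, plus strand: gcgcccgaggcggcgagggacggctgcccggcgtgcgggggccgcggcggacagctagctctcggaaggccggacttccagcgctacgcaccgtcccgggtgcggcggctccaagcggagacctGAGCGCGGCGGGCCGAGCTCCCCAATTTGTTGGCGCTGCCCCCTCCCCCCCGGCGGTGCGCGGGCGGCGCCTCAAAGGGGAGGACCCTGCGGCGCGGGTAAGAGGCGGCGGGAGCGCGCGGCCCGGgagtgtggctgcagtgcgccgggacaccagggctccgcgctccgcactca
The window holds 77.7% G and C, with 1 match each to GGGCGG and CCAAT and none to TATAAA. COL4A1 and COL4A2 are thus read outward from the same short stretch, and their log2 fold changes were 1.22 and 0.33.

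In the COL4A5 and COL4A6 pair both changes were above 0. COL4A5 (chromosome X, 107683068 to 107940775, plus strand), a chain of the kidney and eye networks, had 647, 654, 1202 and 1387 counts. Its PRMT3-KD libraries were nearly equal, and the mean went from 23.6 ± 0.301 to 48.1 ± 1.07 CPM (2.04-fold, log2 1.03, SE 0.082, adjusted p = 0.0142). COL4A6 was far lower, with 33, 40, 98 and 49 counts (log2 1.07, SE 0.46, adjusted p = 0.176).

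In the COL4A4 and COL4A3 pair both changes were below 0. COL4A4 (chromosome 2, 227867430 to 228029169, minus strand) had 50, 76, 14 and 19 counts and fell by 1.89 on the log2 scale (2.28 ± 0.678 to 0.610 ± 0.0833 CPM, SE 0.35, adjusted p = 0.0356, and 0.181 with limma-voom). COL4A3 had 35, 22, 11 and 20 counts (log2 -0.85, SE 0.42, adjusted p = 0.224). With so few counts, the sizes of these changes are imprecise.

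**Figure D3:**
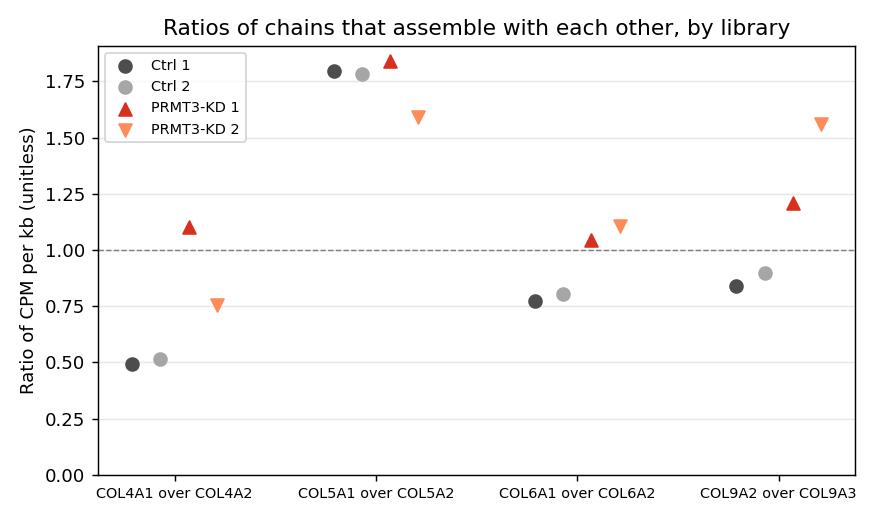
Ratio of CPM per kb between chains of the same collagen type, on a linear axis, with 1 symbol per library (circles, Ctrl; triangles, PRMT3-KD) and a dashed line at equal levels. COL4A1 over COL4A2 goes from 0.495 and 0.513 in Ctrl to 1.10 and 0.754 in PRMT3-KD, and COL5A1 over COL5A2 stays between 1.59 and 1.84.

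The type VI chains, which assemble into beaded filaments, were not called. COL6A1 had 10399, 10693, 8130 and 14468 counts (log2 0.12, SE 0.23, adjusted p = 0.746) and COL6A2 had 11016, 10904, 6385 and 10725 counts (log2 -0.34, SE 0.21, adjusted p = 0.304). For both, PRMT3-KD 1 was the lowest library. COL6A3 had 1879, 1891, 1355 and 1465 counts, with both PRMT3-KD libraries below Ctrl, and passed the adjusted p threshold at a change under 1.5-fold (log2 -0.38, SE 0.073, adjusted p = 0.0376). The order of COL6A1 and COL6A2 per kb turned, with ratios of 0.774 and 0.804 in Ctrl and 1.04 and 1.11 in PRMT3-KD. COL6A3 per COL6A1 was 0.0721, 0.0706, 0.0665 and 0.0404.

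Of the 3 short-chain network collagens tested, none was called. COL8A1, a chain of vessel and cornea matrix, had 2685, 2740, 3197 and 3774 counts and passed the adjusted p threshold at a change under 1.5-fold (log2 0.40, SE 0.073, adjusted p = 0.0355). COL8A2 had 78, 83, 59 and 171 counts (log2 0.52, adjusted p = 0.487), and COL10A1, the collagen of hypertrophic cartilage, had 23, 19, 70 and 42 (log2 1.47, SE 0.41, adjusted p = 0.0768). Both COL10A1 values in PRMT3-KD were above Ctrl, while COL8A2 split around Ctrl.

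Among 7 fibril-associated collagens tested, COL21A1 fell (14.3% called, against 10.9% of all genes tested). COL21A1 had 188, 189, 61 and 89 counts on chromosome 6 (55921388 to 56258892, minus strand) and went from 6.83 ± 0.0608 to 2.77 ± 0.518 CPM (log2 -1.30, SE 0.20, adjusted p = 0.0271). Both chains of type IX that were measured had their lowest value in PRMT3-KD 1, with 198, 191, 76 and 203 counts for COL9A2 (log2 -0.47, adjusted p = 0.479) and 206, 186, 55 and 114 for COL9A3 (log2 -1.19, SE 0.33, adjusted p = 0.0733, and 0.0152 with DESeq2). COL12A1, by far the most abundant gene of the class, had 17181, 17134, 14906 and 24376 counts (log2 0.22, SE 0.19, adjusted p = 0.469). Its PRMT3-KD libraries lay on either side of Ctrl. COL14A1 had 541, 545, 571 and 1180 counts (log2 0.70, SE 0.31, adjusted p = 0.180), COL19A1 had 13 to 17, and COL16A1 had a log2 fold change of -0.13 (adjusted p = 0.705).

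COL7A1, which forms the anchoring fibrils below epithelia, fell. It had 1462, 1559, 953 and 900 counts on chromosome 3 (48601506 to 48632762, minus strand), and its mean went from 54.7 ± 2.77 to 34.6 ± 4.12 CPM (log2 -0.66, SE 0.12, adjusted p = 0.0328). COL7A1 was the only called chain with a mean of at least 10 CPM that fell. Its change was close to the fold threshold, at 1.58-fold lower, and without PRMT3-KD 2 it was under the threshold (log2 -0.55).

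The transmembrane collagens COL13A1 and COL17A1 had both PRMT3-KD values above both Ctrl values without being called. COL13A1, found at adhesion sites, had 1014, 944, 2547 and 1361 counts (35.5 ± 1.61 and 74.1 ± 37.01 CPM, log2 1.06, SE 0.37, adjusted p = 0.114, 0.00593 with DESeq2 and 0.0234 with limma-voom). COL17A1, a component of hemidesmosomes of epithelial cells, had 8643, 8646, 12088 and 10154 counts (log2 0.41, SE 0.15, adjusted p = 0.131). Unlike type I collagen, both were highest in PRMT3-KD 1. The epithelial keratins KRT18 (898, 938, 1884 and 2789 counts, log2 1.37, adjusted p = 0.0192) and KRT8 (149, 160, 275 and 374 counts, log2 1.10, adjusted p = 0.0248) rose, while the epithelial cadherin CDH1 had 0, 0, 4 and 1 counts. The sum of the 3 epithelial markers in the table was 37.8, 39.9, 85.1 and 111 CPM, and its part in the COL17A1 values was not tested. COL25A1 had 11 to 22 counts (log2 -0.29, adjusted p = 0.681).

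Of the multiplexins, whose ends are cut off as free fragments such as endostatin, COL18A1 had 1938, 1968, 1835 and 3794 counts (log2 0.54, SE 0.30, adjusted p = 0.268). PRMT3-KD 2 was again the library that stood apart. Exons of other genes cover 18.5% of its exonic bases, and whether the counting used strand is not given, so its counts are less certain. COL15A1 had 21, 19, 47 and 25 counts (log2 0.90, adjusted p = 0.228).

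None of the 11 enzymes was called by edgeR. With 10.9% of all genes tested called, a count of 0 among 11 genes is near the background and is no result about the enzymes. LOXL3 was the 1 enzyme with an unadjusted p under 0.05 in edgeR, where 4950 of the 13172 genes tested had one. It was called lower by DESeq2 and with the replicate block, though not by limma-voom. The enzymes' medians lay on different sides of Ctrl in the 2 knockdown libraries, at -0.36 in PRMT3-KD 1 and 0.17 in PRMT3-KD 2. PRMT3-KD 2 was the higher of the pair in 9 of 11 enzymes and in 20 of 35 chains, and in 46.4% of all genes tested. In 6 enzymes the PRMT3-KD values did not overlap the Ctrl values (54.5%, against 67.1% of all genes tested).

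The lysyl oxidases, which cross-link collagen, held the enzymes with the widest differences between the knockdown libraries. LOXL2, the second most abundant member per kb in Ctrl, had 30343, 31113, 21931 and 52959 counts (1113 ± 25.5 and 1364 ± 708 CPM, log2 0.29, SE 0.37, adjusted p = 0.611). LOXL1, which acts mainly on elastin, had 3117, 3164, 984 and 4799 counts (114 ± 1.79 and 104 ± 92.1 CPM, log2 -0.13, SE 0.68, adjusted p = 0.909). In both genes PRMT3-KD 1 was below and PRMT3-KD 2 above the Ctrl pair, and PRMT3-KD 2 exceeded PRMT3-KD 1 by 2.16-fold and 4.36-fold. COL1A1 had the same arrangement, at 3.80-fold. Exons of other genes cover 9.2% of the exonic bases of LOXL1 and 5.0% of those of LOXL2, and whether the counting used strand is not given.

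LOXL3 had 89, 122, 10 and 46 counts, so both PRMT3-KD values were below Ctrl (log2 -1.90, SE 0.64, adjusted p = 0.107, 0.0210 with DESeq2 and 0.0391 with the replicate block). Exons of other genes cover 25.5% of its exonic bases, which makes its counts uncertain. LOX itself had 450, 427, 380 and 293 counts (log2 -0.33, SE 0.21, adjusted p = 0.308). LOXL4 had 133, 140, 95 and 184 counts (log2 0.05, adjusted p = 0.922). In Ctrl, LOXL2 was thus the most abundant lysyl oxidase (299 CPM per kb), followed by LOXL1 (48.5 CPM per kb) and LOX (3.13 CPM per kb).

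**Figure D4:**
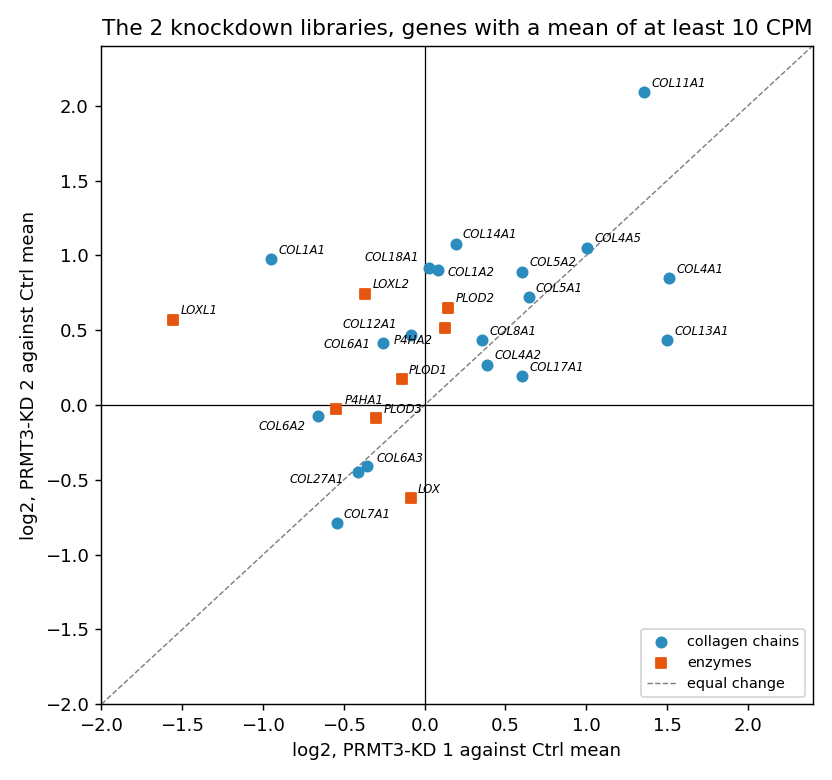
Log2 ratio to the Ctrl mean in PRMT3-KD 2 (vertical) against PRMT3-KD 1 (horizontal) for the 27 members with a mean of at least 10 CPM (circles, chains; squares, enzymes). Points on the dashed line changed equally in both libraries, and COL1A1, LOXL1 and LOXL2 lie in the upper left, lower in PRMT3-KD 1 and higher in PRMT3-KD 2 than Ctrl. COL6A1, COL12A1 and PLOD1 lie in the same quadrant, nearer to the centre.

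The spread between the knockdown libraries was wider for these genes than for the genome. In 10 of the 46 members (21.7%) PRMT3-KD 1 and PRMT3-KD 2 differed by over 1 on the log2 scale, against 6.47% of all genes tested. At a mean of at least 10 CPM, 4 of 27 members did so (14.8%), COL1A1, COL13A1, LOXL1 and LOXL2, against 2.04% of the 9459 genes. These shares are descriptions without a test. On opposite sides of the Ctrl mean were 7 chains (20.0%) and 4 enzymes (36.4%), against 25.7% of all genes.

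The catalytic subunits of prolyl 4-hydroxylase were measured well except P4HA3 (10 to 14 counts, log2 -0.37, adjusted p = 0.508). P4HA1 had 3517, 3313, 2144 and 3444 counts (124 ± 4.59 and 103 ± 26.1 CPM, log2 -0.27, SE 0.19, adjusted p = 0.364). P4HA2 had 1759, 1779, 1774 and 2606 counts (64.1 ± 0.842 and 80.8 ± 15.5 CPM, log2 0.33, SE 0.15, adjusted p = 0.184). Neither was called, with P4HA1 lowest in PRMT3-KD 1 and P4HA2 highest in PRMT3-KD 2.

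The lysyl hydroxylases were all abundant. PLOD1 had 11640, 12196, 9952 and 13815 counts (432 ± 16.5 and 439 ± 66.9 CPM, log2 0.02, SE 0.13, adjusted p = 0.909), and the sign of its fold change turned when libraries were scaled by totals only (-0.012). PLOD2, which hydroxylates the ends of fibrillar chains where cross-links form, had 7084, 6978, 7167 and 11367 counts (log2 0.42, SE 0.18, adjusted p = 0.172). PLOD3, which also has a glycosyltransferase activity, had 7723, 7842, 5822 and 7531 counts (log2 -0.19, SE 0.097, adjusted p = 0.229). PLOD2 was above Ctrl in both PRMT3-KD libraries and PLOD3 below it in both, without passing the test.

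P4HA1, P4HA2, PLOD2, LOX and LOXL2 are known targets of hypoxia and of the transcription factor HIF1A. HIF1A mRNA fell, with 20448, 20042, 4973 and 8204 counts (log2 -1.60, SE 0.20, adjusted p = 0.0204). None of these 5 enzymes was called by edgeR, DESeq2 or limma-voom, but with 10.9% of all genes called, a count of 0 among 5 genes is near the background and is no result about these targets. PLOD2 had the lowest unadjusted p in edgeR (0.0737) and an adjusted p of 0.0491 with limma-voom at a change under 1.5-fold. The log2 fold changes of the 5 lay between -0.33 (LOX) and 0.42 (PLOD2). The window of PLOD2 is shown as an example of such a gene, with capitals at matches to ACGTG or GCGTG, the core of the hypoxia response element, on either strand.
PLOD2, chr3:146161135-146161434, minus strand, GRCh38.p14: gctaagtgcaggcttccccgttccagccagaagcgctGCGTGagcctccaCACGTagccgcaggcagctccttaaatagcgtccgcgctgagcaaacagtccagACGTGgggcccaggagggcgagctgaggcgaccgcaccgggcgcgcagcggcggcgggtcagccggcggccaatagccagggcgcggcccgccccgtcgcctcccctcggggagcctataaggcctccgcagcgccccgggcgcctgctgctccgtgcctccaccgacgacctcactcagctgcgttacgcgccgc
PLOD2 has 3 matches, P4HA1 has 1 and P4HA2 has 0, while LOX has 4 in its first window and 2 in each of its others, which overlap each other. No window was found for LOXL2. Such matches are common, in 48.4% of all windows and 43.1% of the members' windows.

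Genes that work with collagen were taken from 4 lists. Their counts are read against the 10.9% of all genes tested that were called (4.97% higher and 5.97% lower). In lists this small, 1 or 2 calls are near that background and are no result about the list. Of 16 genes of collagen folding and secretion, 2 rose (12.5%), with a median log2 fold change of 0.12 against 0.0055 over all genes. P3H2, a prolyl 3-hydroxylase that prefers type IV collagen, had 1050, 1065, 1578 and 2469 counts (log2 0.96, SE 0.18, adjusted p = 0.0364). COLGALT2, which adds galactose to hydroxylysine, had 768, 752, 1184 and 1069 counts (log2 0.61, SE 0.13, adjusted p = 0.0463, and 0.0830 when scaled by library totals only). Both genes had their PRMT3-KD values clear of Ctrl. The most abundant genes of the list were P4HB, the beta subunit that pairs with the P4HA proteins, with 23134, 22611, 21159 and 25818 counts (log2 0.07, adjusted p = 0.554), and the prolyl isomerase PPIB with 13147, 12888, 14342 and 17673 counts (log2 0.33, adjusted p = 0.0588).

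Of the 7 tested genes that process procollagen outside the cell, edgeR and DESeq2 called none, with 1 unadjusted p under 0.05 and a median of -0.14. BMP1, the procollagen C-proteinase, had 3937, 3861, 2888 and 4062 counts (log2 -0.14, adjusted p = 0.487), and its enhancer PCOLCE had 106, 115, 64 and 94 (log2 -0.46, adjusted p = 0.217). ADAMTS2, the N-proteinase of type I procollagen, had 1 or 2 counts in every library.

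Of 9 collagen receptors tested, 1 was called higher (11.1%, against 4.97% of all genes called higher and 10.9% called in either direction). All 9 fold changes were positive, with a median of 0.44, where 6649 of the 13172 genes tested had a positive fold change and the median was 0.0055. The sign is uncertain for ITGA10, with 31, 37, 43 and 24 counts (log2 0.03, adjusted p = 0.964) and PRMT3-KD libraries on either side of Ctrl. ITGA11, the integrin subunit that binds fibrillar collagen, had 48, 44, 215 and 189 counts (4.52-fold, log2 2.18, SE 0.22, adjusted p = 0.0172). The related ITGA2 had 798, 884, 3319 and 1578 counts (log2 1.61, SE 0.43, adjusted p = 0.0698). Their shared beta subunit ITGB1, the most abundant of the list, had 19086, 18727, 21986 and 31368 counts (log2 0.52, SE 0.14, adjusted p = 0.0647), and the kinase receptor DDR1 had 5772, 5602, 7167 and 7814 (log2 0.44, SE 0.067, adjusted p = 0.0266, under 1.5-fold). In each of these 4 genes both PRMT3-KD values were above both Ctrl values. Over the 9 receptors the groups did not overlap in 88.9%, against 67.1% of all genes tested.

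Of the 5 tested genes of collagen breakdown, MMP14 rose. This membrane-bound protease, which cuts fibrillar collagen and activates MMP2, had 8850, 9096, 17516 and 15844 counts (325 ± 7.98 and 624 ± 93.2 CPM, log2 0.94, SE 0.12, adjusted p = 0.0212). MMP2 had 4327, 4351, 5514 and 3204 counts (log2 0.07, SE 0.32, adjusted p = 0.898), with PRMT3-KD libraries on either side of Ctrl. The secreted collagenases MMP1, MMP8 and MMP13 had between 0 and 14 counts and were not tested. The list's 1 call is 20.0% of its genes tested, against 4.97% of all genes called higher, and the list's median was 0.51.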

How the data were processed

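Total RNA of U251 cells was sequenced by the authors on an Illumina sequencer after library preparation. The authors aligned reads to hg19 with TopHat and made unnormalized gene counts with Cufflinks, and the submitters' processing notes also name CASAVA and DESeq2. Versions, strand and annotation are not given in the sources used here. The deposited whole-number counts were used as they are. Of 15576 rows, 1 duplicate was removed.

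Counts were tested in R 4.3.3 with edgeR 4.0.16 (filterByExpr with minimum count 10 and minimum total 15, TMM, glmQLFit, glmQLFTest, Benjamini-Hochberg over 13172 genes, no replicate block). The standard error was derived from the log2 fold change and F. Alternatives were DESeq2 1.42.0 (the authors' tool), limma 3.58.1 voom with group weights, upper-quartile scaling, library totals only, a looser (1 count in any library) and a stricter (10 counts in all) filter, a block for replicate number, no fold threshold and leaving out each library. The tests were also run on simulated counts, whose outcome is not reported here and is not used as support for the calls. Gene lengths, coordinates and exon overlaps came from GENCODE 44 on GRCh37, and promoters from RefSeq (GRCh38.p14). Library totals limit the precision of members with few counts. By rule, counts by library are given for called members, for members at 50 CPM or more on average, and in each list for called genes and the 2 most abundant. Other members and list genes were named after their values were seen. The members and lists were chosen with earlier results of these data known.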

Additional observations from a re-analysis of the deposited data

How the results depend on the processing

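Leaving out 1 library changed most. Without either Ctrl library the spread comes from the PRMT3-KD libraries alone, and without either PRMT3-KD library from the Ctrl pair alone, so that 0 to 3066 genes were called in place of 1441 (higher 0 to 1432). The same ranges were 0 to 12 for chains called higher, 0 to 8 for chains called lower, 0 to 2 each for enzymes called higher and lower, 0 to 2 each for folding and secretion genes called higher and lower, 0 to 1 and 0 to 2 for procollagen processing genes called higher and lower, 0 to 3 for receptors called higher and 0 to 2 for breakdown genes called higher. The median log2 fold change ran from 0.0257 to 0.3252 for chains and from -0.366 to 0.174 for enzymes. Members whose sign turned ran from -0.0873 to 0.4676 (COL12A1), -0.427 to 0.1125 (COL16A1), -0.9549 to 0.9763 (COL1A1), -0.8202 to 0.115 (COL25A1), -0.2598 to 0.4171 (COL6A1), -0.3321 to 1.0467 (COL8A2), -1.2388 to 0.0227 (COL9A2), -1.5585 to 0.5727 (LOXL1), -0.371 to 0.7462 (LOXL2), -0.4069 to 0.3914 (LOXL4) and -0.1445 to 0.174 (PLOD1).

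With no fold threshold 2278 genes passed, 1105 of them higher, with 6 chains higher, 5 chains lower and 2 receptors higher. DESeq2 called 1834 genes, limma-voom 1690 and library totals only 1275. Receptors called higher were 2 with DESeq2, 2 with limma-voom and 2 with the replicate block. Enzymes called lower were 1 with DESeq2 and 1 with the block. Chains called lower were 2 with limma-voom. Folding genes called lower were 1 with limma-voom, and those called higher were 1 with library totals only. The chain median was 0.193 with limma-voom and 0.1912 with the block. PLOD1 turned to -0.012 with library totals only.

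The replicate numbers are shared labels with no stated pairing: the differences between replicates 1 and 2 correlated at 0.0197 between the groups across genes. The block raised the calls to 1464. Few counts limit COL3A1, COL4A3, COL4A4, COL4A6 and COL10A1. The cause of the differences between settings was otherwise not tested.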
